A study of Mus musculus with 3 samples.

Results

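The genes described here make, regulate and move cholesterol. The set was chosen by gene symbol from the platform annotation and listed 32 genes. A level was available for 30 of them, among 19938 named genes on the array, and no probe set was named for Acat2 or Soat1 in the annotation used here. RNA came from 1 group of 3 replicates, labelled as spermatids from the testes of wild-type male BALB/c mice aged 30 days, and no other group was available for comparison. Each was hybridised to an Affymetrix GeneChip Mouse Gene 1.0 ST array, and values are log2 levels after Robust Multichip Average (RMA) processing. The labels' protocols give a strained suspension of testis tubule cells and no sorting step, and do not say whether the replicates came from separate animals, so the spread between them may be technical. All 9 spermatid markers and all 8 spermatocyte markers were above background, but so were 6 of 7 Leydig cell and 7 of 10 Sertoli cell markers, so the levels below are those of a mixed suspension.

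Cholesterol is built from acetyl-CoA through mevalonate, isoprenoid diphosphates, squalene and lanosterol, and a last run of enzymes trims lanosterol to cholesterol. When membrane sterol falls, the escort protein SCAP carries the SREBP transcription factors from the endoplasmic reticulum to the Golgi for cleavage, and INSIG proteins hold them back when sterol is plentiful. In testis the pathway serves several cell types: Leydig cells turn cholesterol into androgen, Sertoli cells recycle lipid from germ cell debris, and germ cells express CYP51, whose product is a meiosis-activating sterol. Sperm later lose membrane cholesterol during capacitation.

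Of the 30 genes with a level, 19 (63.3%) were above background, and 36.6% of all named genes were. Enzymes of cholesterol synthesis accounted for 12 of 20 genes, SREBP regulators for 3 of 5 and transport genes for 4 of 5. The median level of the 30 genes was 8.57, against 7.45 for all named genes, and the difference was 1.14, 1.11 and 1.11 on replicates 1, 2 and 3. Background was set at 7.98, the 95th percentile of 211 vomeronasal receptor and hair keratin associated protein genes, whose own median was 4.77. A gene counted as above background when its mean exceeded 7.98 in limma's one-sided test with a Benjamini-Hochberg adjusted p under 0.05 over all named genes. Exactly equal values on all 3 arrays were found for 14 of the 30 genes (46.7%) and for 46.0% of all named genes. For such tied genes the SD is 0 and no p is given below, because the test then only asks on which side of 7.98 the level lies. A further 11 of the 30 genes had the same value on 2 of the 3 arrays. They made up 68.8% of the 16 cholesterol genes not tied on all arrays, against 59.9% for all named genes not tied on all arrays. So many exact ties are unusual for log2 levels of independent arrays, and their cause was not tested. The SDs and p-values below may therefore be smaller than separate replicates would give. A gene not above background is not shown to be absent, and in a mixed suspension fewer cells of a type and less RNA per cell cannot be told apart. Probes of one gene bind better than those of another, so the order of the genes by level is not an order of transcript amounts.

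**Figure D1:**
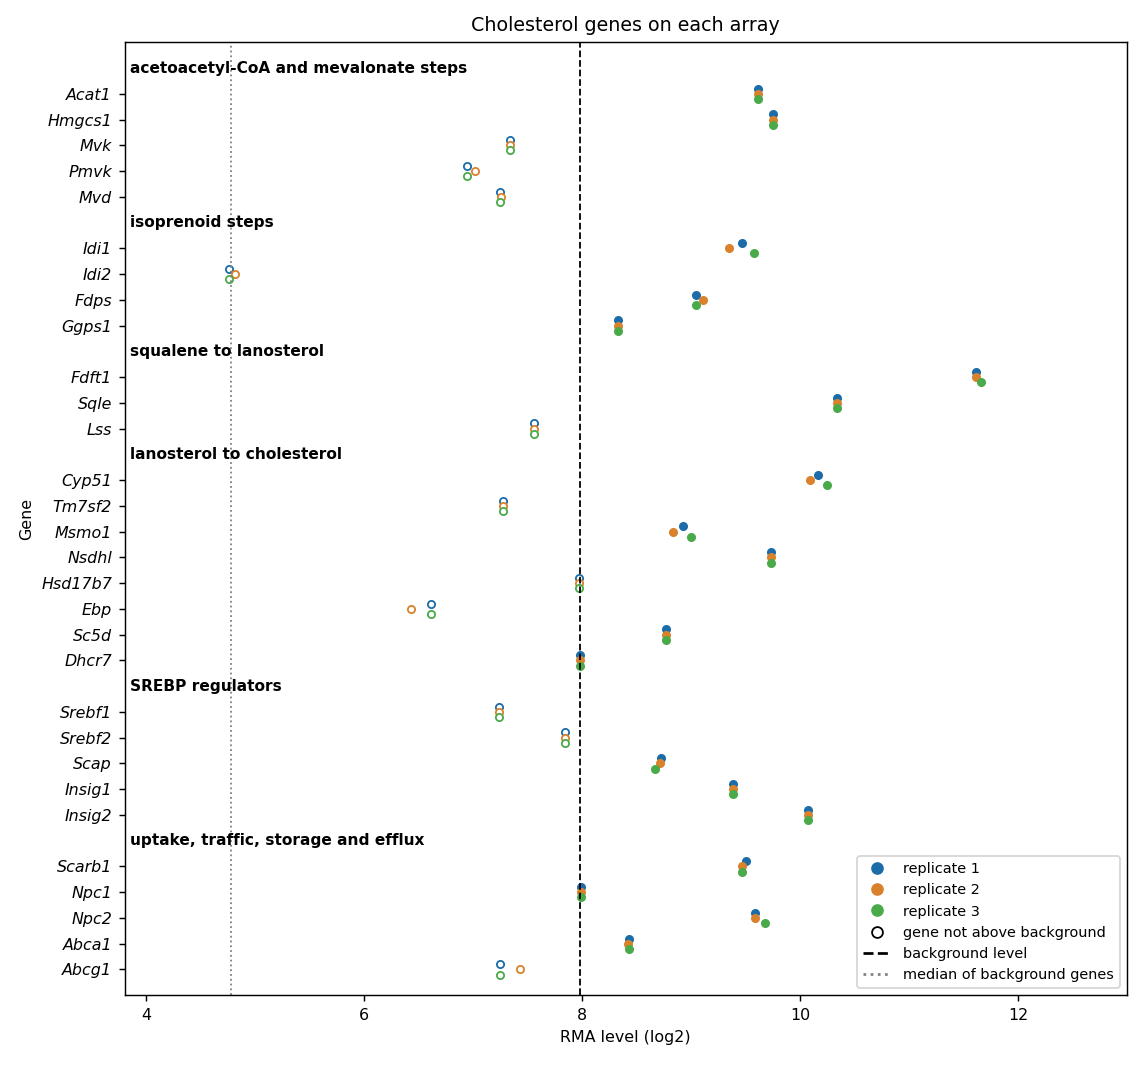
RMA level (log2, horizontal axis) of each of the 30 cholesterol genes on the 3 arrays, grouped by role. Filled points are genes above background and open points genes that were not; the dashed line is the background level of 7.98 and the dotted line the background genes' median of 4.77. Fdft1, Sqle, Cyp51 and Insig2 lie furthest to the right, Idi2 lies at the background median, and Hsd17b7, Dhcr7 and Npc1 lie on the dashed line.

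The first steps join acetyl-CoA units and lead to mevalonate and its diphosphate, and there 2 of 5 genes were above background. Hmgcs1, the cytosolic HMG-CoA synthase, was at 9.76, 9.75 and 9.75 on replicates 1, 2 and 3 (mean 9.75 ± 0.0026 SD, n = 3). Its mean lay 1.77 above the background level on the log2 scale (adjusted p = 3.95e-07, limma). All 3 arrays were nearly alike. Acat1, a mitochondrial thiolase that makes and splits acetoacetyl-CoA, was tied at 9.61. The enzymes that follow were all below the background level on every array. Mevalonate kinase (Mvk) was at 7.34, 7.34 and 7.34 (SD 0.0035). Phosphomevalonate kinase (Pmvk) was at 6.95, 7.02 and 6.95 (SD 0.04), with replicate 2 slightly higher. Mevalonate diphosphate decarboxylase (Mvd) was at 7.24, 7.26 and 7.24 (SD 0.0087). Each of these kinase and decarboxylase levels was closer to the background level than to the background genes' median of 4.77.

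Upstream sequence of Hmgcs1 and Mvk is shown because these genes lie on opposite sides of the background level. The windows hold the 250 bases before the annotated RefSeq start (assembly GRCm38.p6), chr13:119690101-119690350 on the plus strand for Hmgcs1 and chr5:114444019-114444268 on the plus strand for Mvk. Sequences here and below run 5′ to 3′ along the gene. Capitals mark matches on either strand to the sterol regulatory element TCACNCCAC, the cAMP response element core TGACGT, the CCAAT box CCAAT, the GC box GGGCGG and the E-box CACGTG.
Hmgcs1: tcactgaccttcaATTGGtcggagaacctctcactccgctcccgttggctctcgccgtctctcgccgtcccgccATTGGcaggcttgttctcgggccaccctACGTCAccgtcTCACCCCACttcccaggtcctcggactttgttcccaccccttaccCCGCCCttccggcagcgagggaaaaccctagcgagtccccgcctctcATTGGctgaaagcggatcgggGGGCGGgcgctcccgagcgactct
Mvk: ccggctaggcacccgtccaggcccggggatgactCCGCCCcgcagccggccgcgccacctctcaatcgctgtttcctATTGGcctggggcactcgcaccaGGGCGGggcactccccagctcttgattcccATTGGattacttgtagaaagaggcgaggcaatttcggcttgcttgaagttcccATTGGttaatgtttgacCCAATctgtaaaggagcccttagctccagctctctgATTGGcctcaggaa
The Hmgcs1 window held 7 matches. Among them were a sterol regulatory element, TCACCCCAC, whose first base lay 137 bases before the start, and a cAMP response element core that began 148 bases before it. The Mvk window also held 7 matches, 5 of them CCAAT boxes and 2 GC boxes. The number of matches was the same in both windows, but the motifs differed in part. A link between motifs and calls was not tested.

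Isoprenoid genes were above background in 3 of 4 cases. Idi1, the isopentenyl diphosphate isomerase, was at 9.46, 9.34 and 9.57 (mean 9.46 ± 0.11 SD, n = 3), 1.48 above the background level (adjusted p = 0.00144, limma). Replicate 2 was lowest and replicate 3 highest, and each of its 2 probe sets kept that order (9.38, 9.23 and 9.48 for one, 9.55, 9.46 and 9.67 for the other). The lowest array was still well above 7.98. Its paralog Idi2, which lies on chromosome 13 as Idi1 does, was at 4.76, 4.81 and 4.76 (mean 4.77 ± 0.03), level with the median of the background genes. Both of its probe sets were low, with means of 4.83 and 4.71. Farnesyl diphosphate synthase (Fdps), whose product feeds both sterols and protein prenylation, was at 9.05, 9.11 and 9.05 (mean 9.07 ± 0.04; adjusted p = 0.000263, limma). Geranylgeranyl diphosphate synthase (Ggps1), on the branch towards prenylated proteins, was tied at 8.33, only 0.35 above the level.

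The isomerase paralogs lie on opposite sides of the background level, so both upstream windows are shown, chr13:8885356-8885605 for Idi1 and chr13:8952613-8952862 for Idi2, each on the plus strand.
Idi1: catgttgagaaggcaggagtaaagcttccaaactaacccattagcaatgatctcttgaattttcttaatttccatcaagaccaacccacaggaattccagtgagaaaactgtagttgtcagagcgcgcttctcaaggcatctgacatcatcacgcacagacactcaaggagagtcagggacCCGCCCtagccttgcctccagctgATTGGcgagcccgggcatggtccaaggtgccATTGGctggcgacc
Idi2: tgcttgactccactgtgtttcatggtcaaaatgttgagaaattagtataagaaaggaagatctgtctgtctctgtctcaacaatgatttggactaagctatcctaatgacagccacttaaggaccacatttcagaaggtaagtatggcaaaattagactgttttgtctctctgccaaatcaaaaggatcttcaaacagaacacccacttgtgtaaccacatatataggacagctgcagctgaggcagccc
The Idi1 window held 3 matches, 2 CCAAT boxes that began 45 and 14 bases before the start and a GC box that began 69 bases before it. None of the 5 motifs was matched in the Idi2 window, which says only that these letters are not in those bases.

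Genes from squalene to lanosterol included the highest level of the set. Fdft1, squalene synthase, the first enzyme committed to sterols, was at 11.62, 11.61 and 11.66 (mean 11.63 ± 0.03 SD, n = 3), 3.65 above the background level (adjusted p = 1.14e-05, limma). Its 2 probe sets were close, with means of 11.55 and 11.70. Sqle, the squalene epoxidase, a control point of the pathway, was tied at 10.33, or 2.35 above the level. Lanosterol synthase (Lss), which closes the sterol rings, was tied at 7.56 and not above background. Of these 3 consecutive enzymes, 2 were therefore above background on every array and 1 on none.

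Among the 8 genes from lanosterol to cholesterol, 5 were above background. Cyp51, which removes the first methyl group of lanosterol, was at 10.16, 10.09 and 10.25 (mean 10.17 ± 0.08 SD, n = 3), 2.18 above the level (adjusted p = 0.000286, limma). Replicate 3 was highest and replicate 2 lowest. Msmo1, the sterol methyl oxidase, was at 8.93, 8.84 and 9.00 (mean 8.92 ± 0.08; adjusted p = 0.00177, limma), in the same order of arrays. Nsdhl, the X-linked dehydrogenase that acts after Msmo1, was tied at 9.73, and Sc5d, a late desaturase, at 8.77. Dhcr7, which reduces the last intermediate of one route to cholesterol, was tied at 7.98. It counted as above background by only 0.0019 on the log2 scale, a call that ended with equal array medians and with probe sets of several genes added (-0.34). The keto-reductase gene Hsd17b7 was tied at 7.97 and fell short by 0.02, so the pair differed by under 0.02. Without replicate 2 the background level was 7.94, and Hsd17b7 then lay 0.03 above it and was called. Tm7sf2, a sterol reductase that acts directly after Cyp51, was tied at 7.28. The X-linked isomerase gene Ebp was at 6.62, 6.43 and 6.62 (mean 6.55 ± 0.11), with replicate 2 lowest, and no array reached the level. Lbr, the lamin B receptor, which carries the same reductase activity as Tm7sf2, was at 8.89, 8.85 and 8.89 in the list of related enzymes and was above background, and was named after its values were seen.

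The upstream window of Cyp51, chr5:4104698-4104947 on the minus strand, is shown because this gene is known for its germ cell expression.
Cyp51: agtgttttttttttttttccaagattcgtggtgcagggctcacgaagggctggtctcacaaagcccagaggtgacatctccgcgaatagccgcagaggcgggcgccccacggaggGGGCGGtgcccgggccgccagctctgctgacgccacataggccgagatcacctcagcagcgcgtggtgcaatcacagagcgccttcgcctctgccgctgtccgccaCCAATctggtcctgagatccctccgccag
It held 2 matches, a GC box that began 135 bases before the start and a CCAAT box that began 29 bases before it. The other motifs were not matched, which says only that those exact letters are not in these bases.

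At the background level of 7.98, 3 of 5 regulators were above background, against 36.6% of all named genes. Both SREBP genes were below that level. Srebf2, the main factor for sterol genes, was tied at 7.84 and Srebf1, the main factor for fatty acid genes, at 7.23. Their partners were above background. Scap, the escort, was at 8.72, 8.71 and 8.67 (mean 8.70 ± 0.03 SD, n = 3), 0.72 above the level (adjusted p = 0.000385, limma). The retention genes Insig1 and Insig2 were tied at 9.39 and 10.07. Srebf2 lay only 0.14 below the level. A probe set that the annotation assigns to Srebf2 together with Ube3a, C230091D08Rik and P3h3 was at 10.47, 10.30 and 10.64, so the level of Srebf2 is uncertain. With probe sets of several genes added to all genes, which put 31.6% of them above background, Srebf2 lay 0.83 above the level and passed the test. At the lower level of 7.18 from olfactory receptor genes, all 5 regulators were called, Srebf1 by 0.051, with 55.0% of all named genes.

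A cAMP response element core was matched in 2 of the 31 windows available, 6.45% against 7.77% for genes with a level. These windows cover 23 of the 30 genes. The upstream window of Insig1, chr5:28071162-28071411 on the plus strand, is given as one of the 2 with the core.
Insig1: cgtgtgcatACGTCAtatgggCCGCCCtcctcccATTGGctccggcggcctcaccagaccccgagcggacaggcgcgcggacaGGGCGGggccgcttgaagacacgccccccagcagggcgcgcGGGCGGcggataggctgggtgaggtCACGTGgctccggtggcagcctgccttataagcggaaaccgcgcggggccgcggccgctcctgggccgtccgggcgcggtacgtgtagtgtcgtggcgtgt
It held 6 matches: that core, which began 241 bases before the start, 3 GC boxes, a CCAAT box and an E-box that began 101 bases before the start.

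Transport genes were above background in 4 of 5 cases. Npc2, the soluble sterol carrier of lysosomes, was at 9.59, 9.59 and 9.68 (mean 9.62 ± 0.05 SD, n = 3), 1.64 above the level (adjusted p = 0.000213, limma). Its membrane partner Npc1, which passes cholesterol out of lysosomes, was tied at 7.99 and exceeded the level by only 0.01, a call that ended under the same settings as that of Dhcr7 (-0.33 with probe sets of several genes added). Scarb1, the receptor that takes up cholesteryl ester from high-density lipoprotein, was at 9.51, 9.47 and 9.47 (mean 9.48 ± 0.02; adjusted p = 4.42e-05, limma). Scarb1 is also a gene of Leydig and Sertoli cells, and its part in each cell type was not tested. Of the efflux pumps, Abca1 was at 8.43, 8.42 and 8.43 (mean 8.43 ± 0.0071), 0.45 above the level (adjusted p = 6e-05, limma). Abcg1 was at 7.24, 7.43 and 7.24 (mean 7.30 ± 0.11), with replicate 2 highest, and was not above background.

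These calls depend on where background is set. Within 0.2 of the level lay Dhcr7 and Npc1, just above, and Hsd17b7 and Srebf2, just below. At the 99th percentile of the same background genes, a level of 9.16, 10 of the 30 genes remained above background, with 19.3% of all named genes: Acat1, Hmgcs1, Fdft1, Sqle, Cyp51, Nsdhl, Insig1, Insig2, Scarb1 and Npc2. These 10 genes were above background under each of the 11 alternative settings tried. The other settings had lower levels, from 6.92 to 8.33, so this follows largely from passing the level of 9.16. At the level of 7.18 from olfactory receptor genes, 26 of the 30 genes and 55.0% of all named genes were above background. The vomeronasal receptor genes alone gave a level of 6.92, with 27 of the 30 genes and 62.0% of all named genes called above background. Without the 4 background genes named as pseudogenes the level was 7.64, with 21 of the 30 genes and 43.6% of all named genes called. Pmvk, Idi2 and Ebp were called under none of the settings, though Pmvk lay 0.053 above the vomeronasal receptor level without passing the test. The call of the other 17 genes differed from the main one under at least 1 setting. Among them Idi1 lost its call at the 99th percentile level with its mean still 0.30 above that level.

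**Figure D2:**
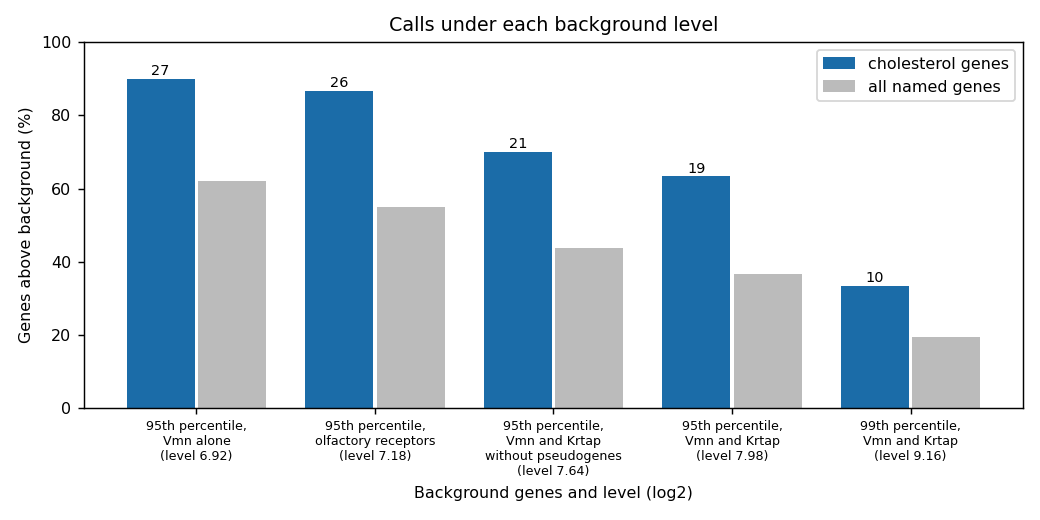
Share of genes above background (%, vertical axis, from 0) for the 30 cholesterol genes and for all named genes under 5 background levels, in order of level (log2). Numbers over the bars are counts of cholesterol genes, from 27 at a level of 6.92 to 10 at 9.16.

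Upstream windows could be compared for 23 of the 30 genes, which have 31 windows in the RefSeq promoter table. No window was available for Acat1, Fdps, Fdft1, Sqle, Scarb1, Npc1 and Abcg1, so nothing is said of their motifs. A CCAAT box was matched in 67.7% of these windows, against 33.8% of all 32851 windows and 34.5% of the 19177 windows of genes with a level on the array. By gene, 20 of 23 had one, the exceptions being Abca1, Idi2 and Scap. A GC box was matched in 74.2% of the windows, against 45.5% of those of genes with a level and 54.8% of those of genes above background. The exceptions were Ggps1, Idi2 and Pmvk. Among these 23 genes, only Hmgcs1 matched the sterol regulatory element pattern TCACNCCAC, 1 of 31 windows, with 1.01% among genes with a level. Elements spelled otherwise were not searched, so a window without a match is not shown to lack one. The cAMP response element core was matched in Hmgcs1 and Insig1, 6.45% of the windows against 7.77%. An E-box, a motif added after the others had been counted, was matched in 6 windows (19.4% against 6.99%), those of Abca1, Dhcr7, Hsd17b7, Insig1, Sc5d and Scap. The E-box and the other motifs can overlap, windows of 1 gene can overlap each other, and base composition was not equalised, so these shares describe sequence and carry no test.

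Other genes of the pathway, from 5 lists, were above background in 30 of 58 cases with a level (51.7%), against 36.6% of all named genes. The list of other isoprenoid branch and sterol enzymes had 7 of 11 (63.6%). Its highest levels were those of Nus1, a subunit of the dolichol-making prenyltransferase, tied at 10.61, of the protein prenyltransferase subunit gene Fnta at 10.48, 10.35 and 10.59, and of Rabggtb, a Rab prenyltransferase subunit, at 9.51, 9.44 and 9.51. The lowest were Dhdds, the partner of Nus1, at 7.72, 7.72 and 7.71, Pdss2, which makes the tail of coenzyme Q, tied at 6.44, and Fntb, a partner of Fnta, at 6.40, 6.43 and 6.40. At the main level Nus1 and Fnta were above background and Dhdds and Fntb were not. Dhdds lay above the alternative levels of 7.64 and 7.18, and the subunit genes were not compared in amount.

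Genes of SREBP processing and sterol-linked protein turnover were above background in 5 of 6 cases (83.3%), against 36.6% of all named genes. They were the ubiquitin ligase gene Rnf139 at 11.75, 11.72 and 11.77, the endoplasmic reticulum proteins Erlin1 at 10.13, 10.08 and 10.26 and Erlin2 at 9.39, 9.30 and 9.45, Fbxw7, which targets nuclear SREBP for destruction, at 9.48, 9.43 and 9.52, and the ligase gene Syvn1 at 8.70, 8.70 and 8.58. Mbtps1, the Golgi protease that makes the first cut in SREBP, was tied at 7.68 and not above background. Lipogenic targets of SREBP were above background in 8 of 11 cases (72.7%). Me1, which supplies NADPH, was at 11.61, 11.58 and 11.61, the desaturase gene Fads2 was tied at 10.91, and Acss2, which activates acetate, was at 9.81, 9.81 and 9.85. Scd1 at 8.13, 7.89 and 8.13, Scd2 at 8.32, 8.06 and 8.29 and Gpam at 7.33, 7.17 and 7.33 were not above background. The Scd1 arrays straddled the level, and the Scd2 arrays all lay above it without passing the test.

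In LXR and oxysterol signalling, limma placed 0 of 8 genes above background after adjustment, against 36.6% of all named genes. The count was 0 also at an unadjusted p under 0.05, and no gene exceeded the level on all 3 arrays. LXR is the nuclear receptor that senses oxysterols and drives efflux genes such as Abca1 and Abcg1. The highest was its partner Rxra at 7.97, 7.97 and 7.97 (SD 0.0025), only just below the level, followed by the oxysterol-forming enzyme gene Cyp27a1, tied at 7.83, and Cyp39a1, tied at 7.73. The LXR gene Nr1h3 was tied at 7.21 and Rxrb at 7.02, and Ch25h, which makes an oxysterol, was lowest at 5.19, 5.36 and 5.34. With the olfactory receptor background 6 of the 8 were above it, with 55.0% of all named genes, so the count of 0 depends on the level chosen.

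Other sterol carriers and esterases were above background in 10 of 22 cases (45.5%), not far above the 36.6% of all named genes. Stard6, a sterol-binding START domain gene known from germ cells, was highest at 11.90, 11.72 and 12.13 (mean 11.92 ± 0.20 SD, n = 3), with replicate 2 lowest and replicate 3 highest. Osbpl9, an oxysterol-binding protein relative, was at 11.09, 11.09 and 11.10, and Gramd1c, a sterol transfer protein at membrane contacts, was tied at 11.09. The lowest were the cholesteryl ester hydrolase gene Nceh1 at 6.71 and the sterol pump genes Abcg8 at 6.47 and Abcg5 at 6.36, each tied.

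**Figure D3:**
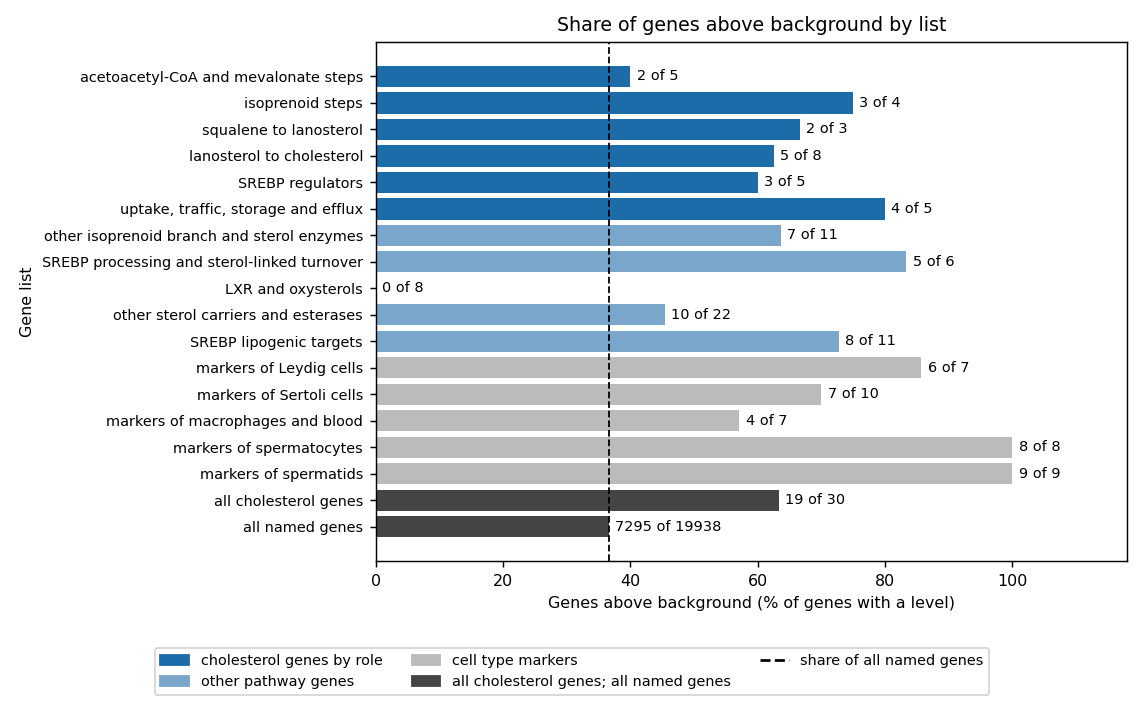
Share of genes with a level that were above background (%, horizontal axis, from 0) in each role of the cholesterol genes, in 5 lists of other pathway genes and in 5 lists of cell type markers. The dashed line is the 36.6% of all named genes; the LXR and oxysterol list lies at 0 of 8 and both germ cell marker lists at 100%.

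The share above background was read beside markers of the cell types in the suspension. Leydig cell markers averaged between 9.87 and 9.98 over the arrays, with Cyp17a1 at 11.41, 11.29 and 11.38, Hsd3b6 at 11.29, 11.11 and 11.40 and Fdx1 at 10.52, 10.46 and 10.34, and with Nr5a1, tied at 7.69, the only one of 7 not above background. Sertoli cell markers averaged between 8.95 and 8.96, with Cst12 at 11.82, 11.77 and 11.85 highest and Amh tied at 5.91 lowest. Macrophage and blood markers were above background in 4 of 7 cases, with Mrc1 at 9.72, 9.57 and 9.72 and Ptprc tied at 6.67. Spermatocyte markers averaged between 11.75 and 11.91 and spermatid markers between 12.38 and 12.44. How much each cell type contributed to the level of a cholesterol gene was not tested.

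The spread between arrays was small for the cholesterol genes. Of the 16 genes that were not tied, the median range over the arrays was 0.06 on the log2 scale, against 0.10 for all 10765 named genes not tied. A range over 0.1 was found for 5 of the 16 (31.2%), namely Idi1, Abcg1, Ebp, Msmo1 and Cyp51, and for 48.8% of the untied named genes. Idi1, Msmo1, Cyp51 and Fdft1 were lowest on replicate 2 and highest on replicate 3. That order was seen in 4 of 16 cholesterol genes (25.0%) and in 20.9% of untied named genes, shares that lie close together. The spermatocyte marker average followed the same order, at 11.81, 11.75 and 11.91 on replicates 1, 2 and 3. So did the spermatid average, at 12.40, 12.38 and 12.44, and the macrophage and blood average, at 8.13, 8.09 and 8.16. The Leydig and Sertoli cell averages were also lowest on replicate 2 but were highest on replicate 1. What these cell types contributed to the order of the cholesterol genes was not tested.

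**Figure D4:**
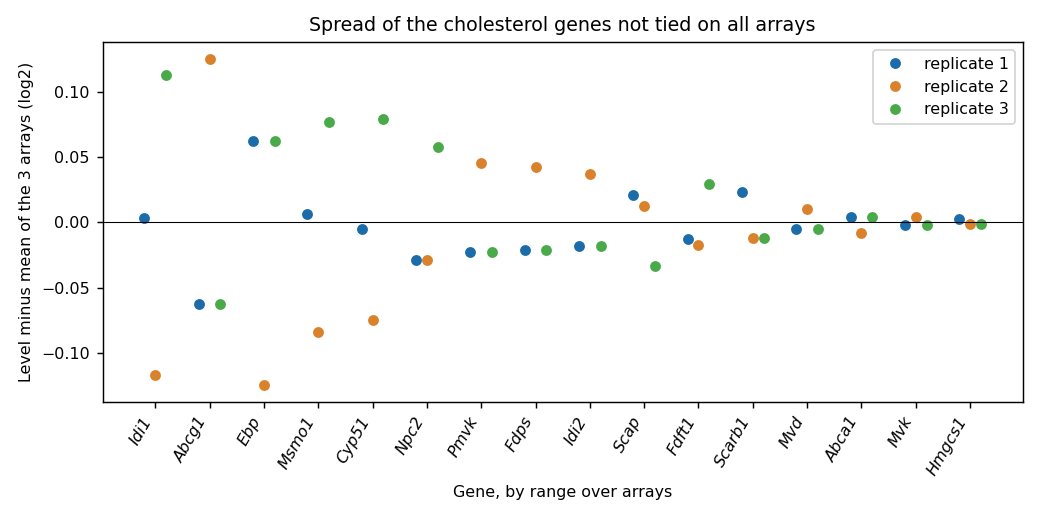
Level on each array minus the gene's mean over the 3 arrays (log2, vertical axis) for the 16 cholesterol genes not tied on all arrays, from the widest range (Idi1, 0.23) to the narrowest (Hmgcs1, 0.0045). Among the 5 genes with a range over 0.1, replicate 2 lies lowest for Idi1, Ebp, Msmo1 and Cyp51 and highest for Abcg1. Over all 16 genes, replicate 2 alone is lowest for 6 and highest for 6.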

How the data were processed

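The table deposited by the authors gives log2 levels per probe set, with a column for each of 3 samples. Its RMA levels and summaries were made with Affymetrix Power Tools on mm9 annotation, per the series' design text, which names no software version. No scanner files were used here. Column medians were 7.17, 7.20 and 7.17, so values were not centred. Of 35556 probe sets, 21789 named 1 gene, 1621 several and 12146 none. Entrez identifiers matched 21698 of the first to current symbols of the GRCm38.p6 gene table, and where a gene had several probe sets of its own their median was used. Calls came from limma 3.58.1 (R 4.3.3), fitted as an intercept with moderated variances and checked on simulated data without tied genes. The number of arrays limits the precision.

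Members and lists were chosen with earlier results of these data known. All members are named. In the pathway and marker lists the 3 highest and 3 lowest genes could be named, with all genes on a side that held at most 3; Lbr was named outside this rule. Motifs were searched in the 250 bases before each RefSeq start; windows on chromosome 18 were not printed. Alternatives changed the background genes or percentile, the probe sets used, the array medians, the test or the replicates. The planned comparison of paralog proteins was not made, for lack of a protein table.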

Additional observations from a re-analysis of the deposited data

How the results depend on the processing

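The count of 19 cholesterol genes above background ranged from 17 to 27 under the alternatives other than the 99th percentile level, which gave 10, and from 19 to 20 with 1 replicate left out. At that 99th percentile level the mean minus the level turned to -0.093 for Fdps, -0.83 for Ggps1, -0.24 for Msmo1, -0.39 for Sc5d, -1.18 for Dhcr7, -0.46 for Scap, -1.17 for Npc1 and -0.73 for Abca1, because the level itself was higher. With probe sets of several genes added the level rose to 8.33, and the difference was -0.34 for Dhcr7 and -0.33 for Npc1. With equal array medians these 2 genes were no longer called. Leaving out the background genes named as pseudogenes, an alternative chosen after seeing the data, lowered the level to 7.64 and gave 21 genes. The median of the cholesterol genes exceeded that of all named genes by 1.12, by 1.10 with the highest probe set per gene, by 1.26 with probe sets of several genes added, and by 1.11 to 1.13 with 1 replicate left out. No paired analysis was possible because there is 1 group. Hsd17b7 was called without replicate 2 only among the replicate settings. The calls of Dhcr7, Npc1, Hsd17b7 and Srebf2, all within 0.2 of the level, rest on its exact value.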
